A study of Cicer arietinum with 18 samples.

Results

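The comparison asked how the response of chickpea (Cicer arietinum) seedlings to salicylic acid (SA) changed between 3 h and 27 h after treatment. It rests on the 6 SA-treated samples of 18 in the series, chosen by their labels: 1 at each time from each of the genotypes FLIP94-508C, ICC3996 and Lasseter, so that the times form 3 pairs by genotype. The shoots (stem and leaf) of seedlings aged 14 days were used, and RNA of SA-treated plants was hybridised with RNA of untreated control plants of the same genotype on a spotted 2-colour cDNA array. Each sample is a set of log2 ratios, likely treated over control, and each ratio is the authors' mean over 3 biological replications with dye swaps. The direction is not stated for the columns, so above and below control, here and in the plots, hold for treated over control and would trade places for the reverse. The other 12 samples had the same genotypes, tissue, age and times, and had received methyl jasmonate (MeJA) or aminocyclopropane carboxylic acid (ACC).

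SA is the plant hormone of systemic acquired resistance. It accumulates after attack by biotrophic pathogens, acts through the NPR1 coactivator and its relatives, and switches on genes for pathogenesis-related proteins. Jasmonates and ethylene, whose precursor is ACC, act in wound responses and in defence against necrotrophs, and often oppose SA signalling. Of the genotypes, ICC3996 is known for resistance to ascochyta blight and FLIP94-508C for moderate resistance, while Lasseter is known to be susceptible.

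The array holds 715 experimental features whose identifiers start with CA (117), LS (156) or U (442). None matched the gene table used here (0 of 715) and the files do not pair identifiers with genes, so features are given by identifier and no role or sequence can be stated for them. In the SA samples 542 to 620 features had a value, and 501 had a value in all 6. The SD over features ran from 0.74 to 1.22 on the log2 scale, with the lowest in FLIP94-508C at 3 h and the highest in Lasseter at 3 h. The SD was 0.51 to 1.19 in the ACC samples and 0.28 to 1.04 in the MeJA samples. Shoots are mixtures of cell types, in which fewer cells of a type and less RNA per cell cannot be told apart.

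Most features with a called difference from control at only 1 SA time did not differ detectably between the times. Of 523 features tested, 32 passed the threshold (adjusted p under 0.05, limma) at 3 h, 6.12% of those tested, and 76 passed at 27 h, 14.5%. At 3 h 29 were below control (5.54%). At 27 h 25 were above control (4.78%) and 51 below (9.75%); after each sample's median was subtracted this split was 34 and 33. These counts moved when a sample was left out. The 3 h count was 2 without Lasseter at 3 h, 10 without ICC3996 at 27 h and 15 without Lasseter at 27 h. The 27 h count was 14 without FLIP94-508C at 27 h and 27 without Lasseter at 27 h. Without a whole genotype the 3 h and 27 h counts were 17 and 7 (FLIP94-508C), 11 and 45 (ICC3996) or 0 and 1 (Lasseter). With the SA samples alone both were 0, and with sample weights they were 20 and 132. At least 1 of the times gave a call for 95 features. The change from 3 h to 27 h itself passed for 11 features, 2.10% of those tested, 9 higher (1.72%) and 2 lower (0.382%) at 27 h, and all 11 lay among the 95. The other 84 had a call at 3 h or 27 h without a called change. At an unadjusted p under 0.05 the change had 90 features.

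**Figure D1:**
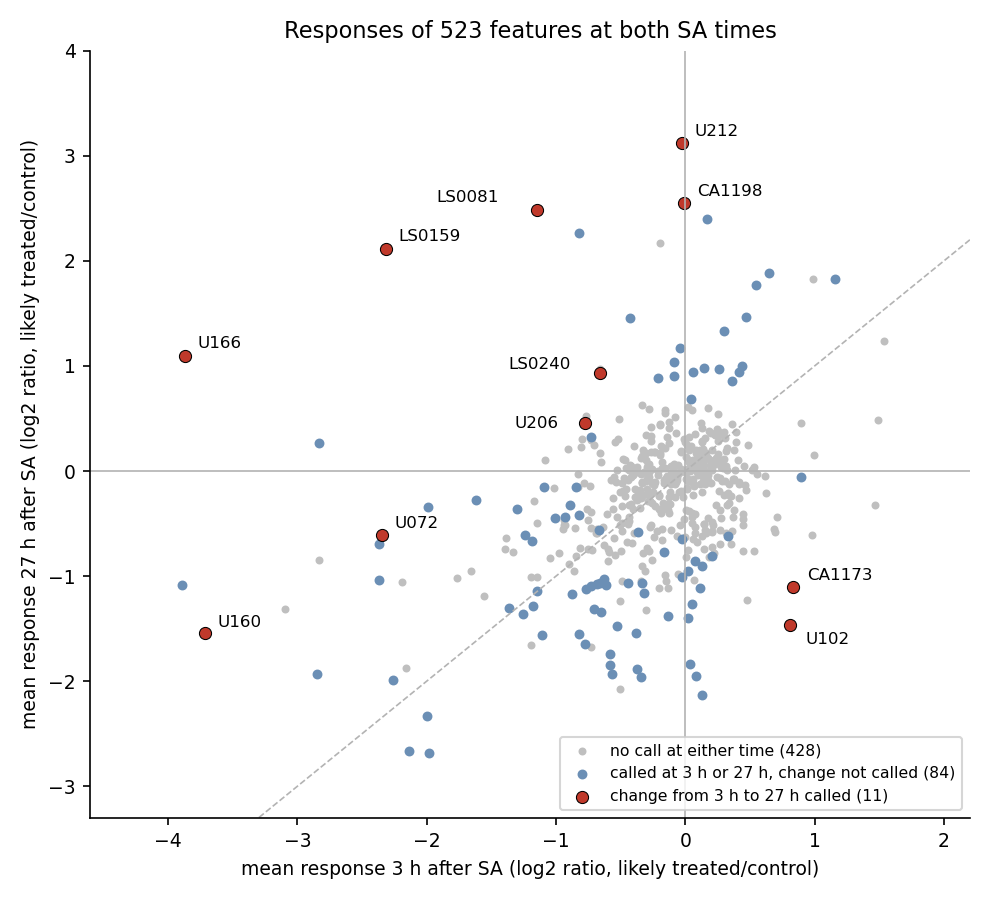
Mean log2 ratio, likely of SA-treated over control plants, at 3 h (horizontal axis) and 27 h (vertical axis) for 523 features, as fitted means over 3 genotypes; the dashed line marks equal responses. The 11 features with a called change are labelled: 9 lie above the line and 2, U102 and CA1173, below it.

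The 11 changes divided into 4 features with opposite responses at the times, 3 that started late and 2 whose response passed at 3 h only. The rest were 1 that stayed below control and 1 that was at least 2-fold below control at 3 h without passing there. In 11 of 11 every measured genotype moved in the direction of the mean, 8 of them in 3 of 3 genotypes and 3 in the 2 genotypes measured at both times. The choice of features favoured such a shared direction, since the changes were called on the same values. By identifier, 2 of the 100 CA features tested, 3 of the 88 LS features and 6 of the 335 U features had a called change. These calls borrow the spread of all 18 samples (10 residual degrees of freedom): a fit of the 6 SA samples alone gave 0 called changes (lowest adjusted p = 0.119 in limma, with 76 features at an unadjusted p under 0.05), and one of the SA and ACC samples gave 3 (U166, U102 and CA1198). Without 1 SA sample the count was 23 (FLIP94-508C at 3 h), 4 (FLIP94-508C at 27 h), 17 (ICC3996 at 3 h), 18 (ICC3996 at 27 h), 5 (Lasseter at 3 h) or 3 (Lasseter at 27 h), and without a whole genotype it was 3 (FLIP94-508C), 1 (ICC3996) or 0 (Lasseter).

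**Figure D2:**
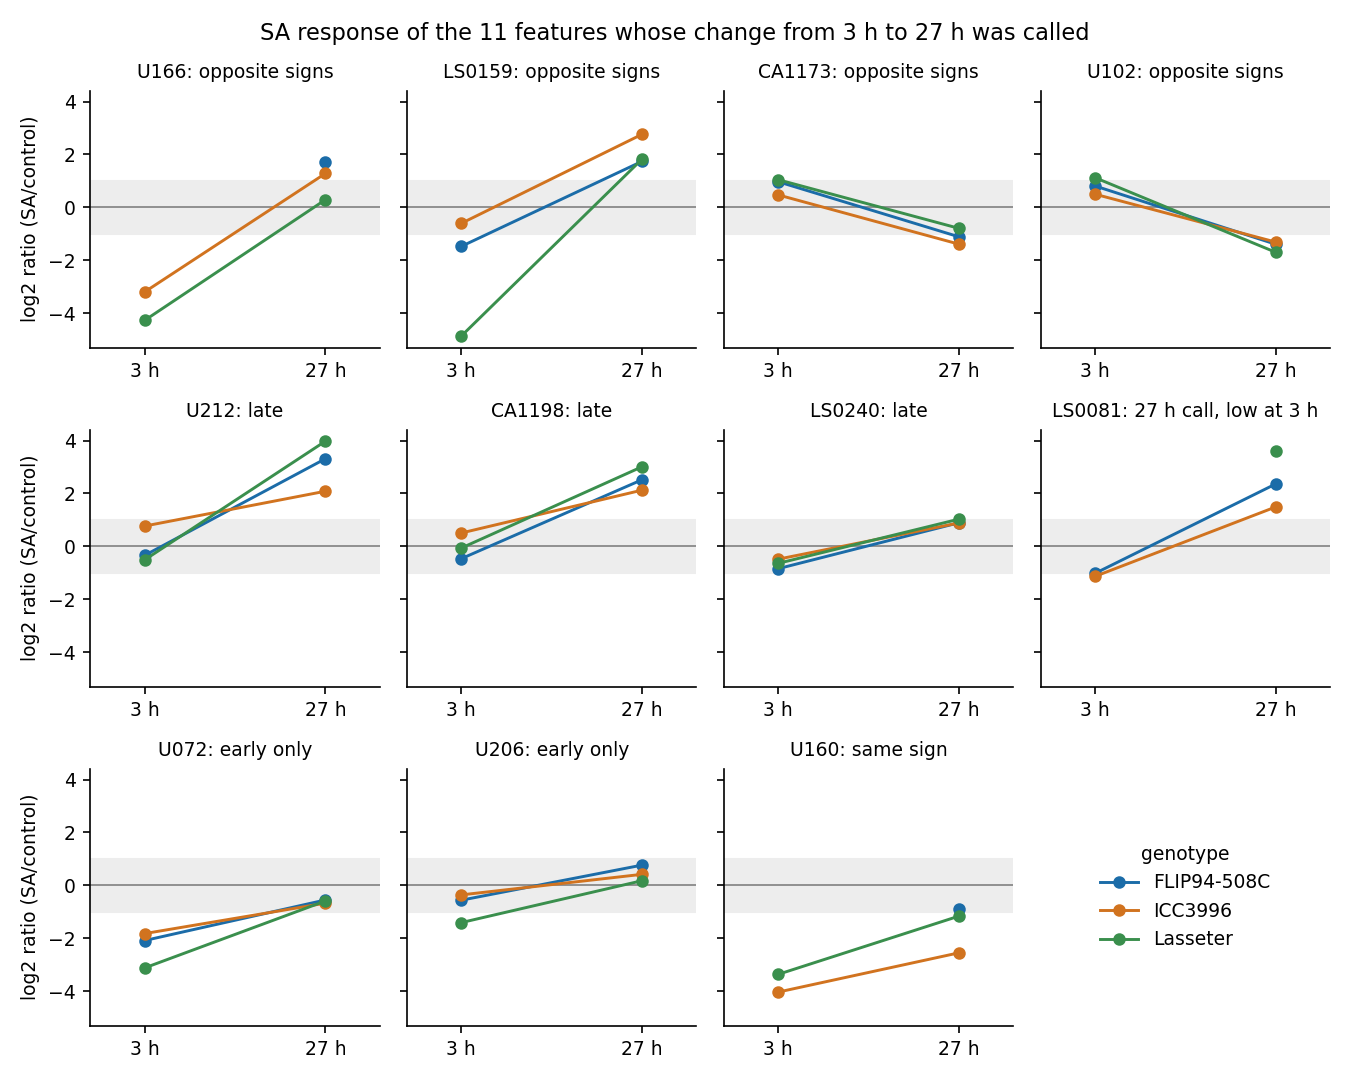
Log2 ratio, likely of SA-treated over control plants, at 3 h and 27 h in each genotype (coloured points, joined by a line where both times were measured) for the 11 features with a called change; the grey band is less than 2-fold from control. U166 and LS0159 cross from below to above control, and U102 and CA1173 cross the other way. U212 and CA1198 leave the band only at 27 h. LS0240 crosses from below to above control near the band's edges and leaves the band only in Lasseter at 27 h.

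Responses of opposite sign passed at both times for 4 features. The count was 0 to 2 in the 9 leave-out fits: 2 without FLIP94-508C at 3 h, 1 without ICC3996 at 3 h or Lasseter at 27 h, and 0 in the other 6. It was 2 without a genotype term, 1 with a variance trend and 0 with the SA and ACC samples only. U166 and LS0159 were below control at 3 h and above it at 27 h. U102 and CA1173 showed the opposite course.

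U166 was at -3.20 in ICC3996 and -4.28 in Lasseter at 3 h, with no value in FLIP94-508C. At 27 h it was at 1.71 for FLIP94-508C, 1.28 for ICC3996 and 0.29 for Lasseter. The times did not overlap. The fitted change was 4.96 (SE 0.54, adjusted p = 0.000355 in limma), a 31.1-fold ratio. The measured change was smaller, at 4.48 in ICC3996 and 4.56 in Lasseter. The fit also used the unpaired 27 h value of FLIP94-508C, through a genotype term estimated over all 3 compounds. With the SA samples alone the fitted change was 4.52. The change passed in all 5 leave-out fits that tested it (adjusted p from 0.000167 to 0.00248). Fits without ICC3996 or Lasseter, at 3 h or as a whole genotype, could not test it. The 5 fits thus left out neither of its 3 h values, and dependence of the change on either was not tested. Its 27 h response alone was less steady (log2 ratio 1.09, SE 0.33, adjusted p = 0.0440 in limma) and was lost without the 27 h sample of FLIP94-508C, that of ICC3996 or the genotype FLIP94-508C (adjusted p up to 0.557).

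LS0159 was at -1.48 for FLIP94-508C, -0.60 for ICC3996 and -4.87 for Lasseter at 3 h. At 27 h it was at 1.74 for FLIP94-508C, 2.77 for ICC3996 and 1.83 for Lasseter. The 3 h values spread far more than those at 27 h, and the times did not overlap. The change was 4.43 (SE 0.80, adjusted p = 0.0125 in limma), with 3.22 for FLIP94-508C, 3.37 for ICC3996 and 6.69 for Lasseter. It was lost in 3 of the 7 leave-out fits that tested it, without the 27 h sample of FLIP94-508C, that of Lasseter or the genotype ICC3996 (adjusted p up to 0.0713). Its responses at the single times were each lost in 4 of 7 leave-out fits. At 3 h these were the fits without the 27 h sample of ICC3996, either Lasseter sample or the genotype ICC3996 (adjusted p up to 0.470), and at 27 h those without any 27 h sample or without the genotype ICC3996 (adjusted p up to 0.157).

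U102 was at 0.81 for FLIP94-508C, 0.50 for ICC3996 and 1.13 for Lasseter at 3 h, and at -1.39, -1.31 and -1.70 in the same order at 27 h. CA1173 was at 0.97, 0.47 and 1.05 at 3 h and at -1.11, -1.39 and -0.79 at 27 h. All 3 genotypes were above control at 3 h and all 3 below it at 27 h, so the times did not overlap. The changes were -2.28 (SE 0.30, adjusted p = 0.000932 in limma) for U102 and -1.93 (SE 0.32, adjusted p = 0.00602) for CA1173. Both kept a called change over features measured in all 18 samples. The profiles of U102 and CA1173 correlated at 0.94 across the 18 samples, the highest correlation between any 2 of the 11. The change of U102 was lost without Lasseter (adjusted p = 0.155), and that of CA1173 without ICC3996 or without Lasseter (adjusted p up to 0.209). Their small responses at 3 h (adjusted p of 0.0383 and 0.0427 in limma) passed in 0 of 9 leave-out fits, the lowest adjusted p being 0.0509 for U102 and 0.0544 for CA1173.

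Counted without a test, sign reversals shared by the genotypes were fewer than persisting signs. Of 501 features with all 6 SA values, 17 (3.39%) were below control in 3 of 3 genotypes at 3 h and above it in 3 of 3 at 27 h, and 14 (2.79%) went the other way. At both times 66 (13.2%) were below control and 28 (5.59%) above it in every genotype. Of these 17 reversals upwards 1 had a mean of at least 2-fold at both times, and of the 14 downwards 0 did. The count with at least 2-fold in all 6 values was 0 for reversals and 0 for persisting signs.

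A response at both times in the same direction passed for 9 features, all below control at both times and 0 above it if the ratio is treated over control; the reverse direction would put all 9 above and 0 below. The prefix U, carried by 335 of the 523 features tested, held 8 of the 9, while CA (100 tested) held 1 and LS (88 tested) 0. The fitted responses of the 9 ran from -3.72 to -0.67 at 3 h (median -1.98) and from -2.68 to -0.56 at 27 h (median -1.56). The medians of all 523 features were -0.13 and -0.12. In 4 of 9 the fitted response was larger in size at 27 h, and in 8 of 9 the fitted means were at least 2-fold below control at both times. Only 5 of 9 had a value in all 6 SA samples.

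U078 was at -1.98 for FLIP94-508C, -2.44 for ICC3996 and -1.57 for Lasseter at 3 h. At 27 h it was at -2.94 in ICC3996 and -1.52 in Lasseter, with no value in FLIP94-508C. The values of the times overlapped, and the fitted responses were -1.997 (SE 0.35, adjusted p = 0.00711 in limma) and -2.33 (SE 0.44, adjusted p = 0.00842). The 3 h response was lost in 1 of the 4 leave-out fits that tested it, without the 3 h sample of Lasseter (adjusted p = 0.0852). None of the 4 fits left out either of its 27 h values, so dependence of the 27 h response on either was not tested.

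U461 was at 0.20 for FLIP94-508C, -3.28 for ICC3996 and -3.71 for Lasseter at 3 h, and at -1.42, -2.07 and -2.48 in the same order at 27 h. It was the only one of the 9 with a value on the other side of control, in FLIP94-508C at 3 h. The fitted responses were -2.26 (SE 0.58, adjusted p = 0.0377 in limma) and -1.99 (SE 0.58, adjusted p = 0.0355). These 2 calls were lost in 7 and 5 of 9 leave-out fits. The 3 h call was lost without the 3 h or the 27 h sample of ICC3996 or of Lasseter, without the 27 h sample of FLIP94-508C, and without the genotype ICC3996 or Lasseter (adjusted p up to 0.978). The 27 h call was lost without any 27 h sample and without the genotype ICC3996 or Lasseter (adjusted p up to 0.289).

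Among the 9, the change between the times passed for 1, U160, which was named for that reason. U160 was at -4.04 in ICC3996 and -3.37 in Lasseter at 3 h, with no value in FLIP94-508C. At 27 h it was at -0.90 for FLIP94-508C, -2.55 for ICC3996 and -1.16 for Lasseter, closer to control in both genotypes measured at both times. The change was 2.18 (SE 0.49, adjusted p = 0.0369 in limma). None of the 5 leave-out fits that tested the change left out either of its 3 h values. It was lost in 3 of the 5, without the 27 h sample of FLIP94-508C, that of Lasseter or the genotype FLIP94-508C (adjusted p up to 0.149). With the samples scaled to equal spread it was 1.04 (adjusted p = 0.629), and with a variance trend it did not pass (adjusted p = 0.167). The changes of all 9 ran from -0.70 to 2.18 with a median of 0.06, and a change that did not pass does not show that the level was held. In leave-out fits the count of 9 fell to between 0 and 6, and it was 0 without the 27 h sample of ICC3996 or without the genotype Lasseter.

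A late start was called only where the response passed at 27 h and not at 3 h, every measured genotype lay within 2-fold of control at 3 h, and the change itself passed. U212, CA1198 and LS0240 met these conditions, all 3 above control at 27 h. No feature met them below control. In leave-out fits the count was 6 without FLIP94-508C at 3 h or without ICC3996 at 3 h, 9 without ICC3996 at 27 h, 3 without Lasseter at 3 h and 0 in the other 5. LS0240 was named because the count was 3.

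U212 was at -0.34 for FLIP94-508C, 0.77 for ICC3996 and -0.51 for Lasseter at 3 h, and at 3.31, 2.09 and 3.98 in the same order at 27 h. The change was 3.15 (SE 0.73, adjusted p = 0.0369 in limma), an 8.91-fold ratio. It was smallest in ICC3996, at 1.32, against 3.66 in FLIP94-508C and 4.49 in Lasseter. This call was lost in 6 of 9 leave-out fits, namely without FLIP94-508C at 27 h, either Lasseter sample or any genotype (adjusted p up to 0.672).

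CA1198 was at -0.46 for FLIP94-508C, 0.51 for ICC3996 and -0.06 for Lasseter at 3 h. At 27 h it was at 2.52, 2.13 and 3.01 in the same order. The times were far apart in each genotype, and the change was 2.56 (SE 0.46, adjusted p = 0.0125 in limma), a 5.90-fold ratio. It was lost in 3 of the 7 leave-out fits that tested it, without the 27 h sample of FLIP94-508C, that of Lasseter or the genotype ICC3996 (adjusted p up to 0.0788).

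LS0240 was at -0.85 for FLIP94-508C, -0.49 for ICC3996 and -0.64 for Lasseter at 3 h, and at 0.89, 0.89 and 1.03 at 27 h. It was below control in 3 of 3 genotypes at 3 h, by less than 2-fold (adjusted p = 0.102 in limma), and above it in 3 of 3 at 27 h. The change was 1.59 (SE 0.31, adjusted p = 0.0215 in limma). It was lost in 4 of the 7 leave-out fits that tested it, without the 27 h sample of FLIP94-508C, either Lasseter sample or the genotype ICC3996 (adjusted p up to 0.103).

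LS0081, named as the single feature outside these groups, also rose to well above control. It was at -1.03 in FLIP94-508C and -1.14 in ICC3996 at 3 h, with no value in Lasseter, and at 2.36 for FLIP94-508C, 1.49 for ICC3996 and 3.61 for Lasseter at 27 h. Its 3 h response did not pass (fitted log2 ratio -1.15, SE 0.57, adjusted p = 0.264 in limma), so it was not counted as a reversal, and it was too far below control at 3 h for a late start. The fitted change was 3.63 (SE 0.72, adjusted p = 0.0215 in limma), above the measured changes of 3.38 in FLIP94-508C and 2.63 in ICC3996. With the SA samples alone it was 3.01. Its call was lost in 3 of the 5 leave-out fits that tested it. These left out the 27 h sample of FLIP94-508C, that of Lasseter or the genotype Lasseter (adjusted p up to 0.141). None of the 5 fits left out either of its 3 h values.

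Without the condition on the change, 37 features passed at 27 h alone and lay within 2-fold at 3 h, 16 above and 21 below control. Their 27 h responses ran from 0.68 to 3.13 (median 0.98) above control and from -2.13 to -0.58 (median -1.07) below it. For the other 34 the change did not pass, with adjusted p of 0.0502 to 0.713 in limma, although 25 of the 37 had an unadjusted p under 0.05. Of the 37, 20 had a 3 h mean with the sign of the 27 h response.

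Differences from control that passed at 3 h and not at 27 h were found for 19 features, 18 of them below control at 3 h. For 14 of the 19 every measured genotype was within 2-fold of control at 27 h, and for 2 of these the change passed. U072 was at -2.09 for FLIP94-508C, -1.82 for ICC3996 and -3.12 for Lasseter at 3 h, and at -0.55, -0.67 and -0.59 in the same order at 27 h. It stayed below control in 3 of 3 genotypes, with a change of 1.74 (SE 0.39, adjusted p = 0.0369 in limma). U206 was at -0.56, -0.36 and -1.41 at 3 h and at 0.77, 0.42 and 0.18 at 27 h. It moved from below to above control in 3 of 3 genotypes, with a change of 1.23 (SE 0.28, adjusted p = 0.0369 in limma) and a 27 h response that did not pass (adjusted p = 0.155). The change of U072 was lost in 6 of 9 leave-out fits (adjusted p up to 0.672) and that of U206 in 7 of 9 (adjusted p up to 0.451). In leave-out fits the count of 2 became 6 without FLIP94-508C at 3 h, 7 without ICC3996 at 3 h, 1 without ICC3996 at 27 h and 0 in the other 6. The call of U072 was lost without FLIP94-508C at 27 h, either Lasseter sample or any genotype, and that of U206 also without ICC3996 at 27 h.

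The genotypes differed in how many features moved between states. In FLIP94-508C, 103 of 554 features measured at both times went from within 2-fold of control at 3 h to at least 2-fold below it at 27 h, 18.6%, and 23 went from below to within. In Lasseter the counts were 36 and 74 of 544 features, and in ICC3996 31 and 24 of 533. Features that went from at least 2-fold below to at least 2-fold above control numbered 4 for FLIP94-508C, 4 for ICC3996 and 3 for Lasseter. Those going from above to below numbered 0, 0 and 5 in the same order. These counts move with the spread of the samples, which rose from 0.74 to 1.07 (SD, log2) in FLIP94-508C, rose from 0.855 to 0.94 in ICC3996 and fell from 1.22 to 0.99 in Lasseter; the part of the spread in them was not tested. With 1 sample for each genotype and time, a difference between genotypes has no replicate check.

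**Figure D3:**
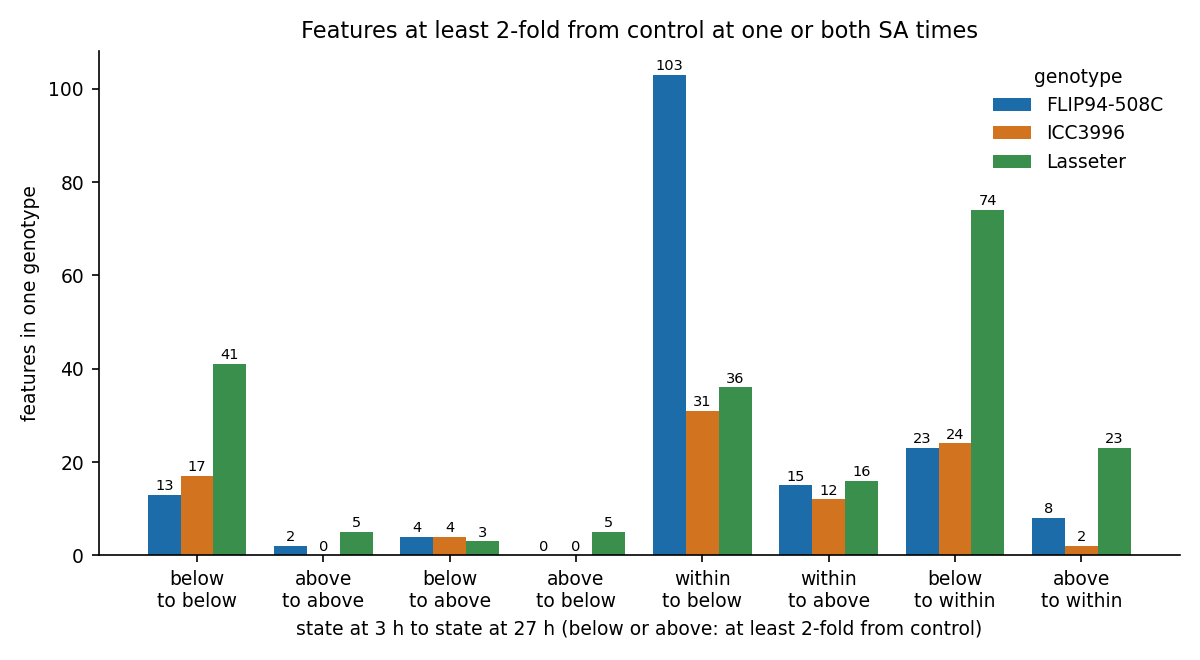
Number of features in each genotype (bars) by state at 3 h and at 27 h after SA, where below and above mean at least 2-fold from control; features within 2-fold at both times are left out. The tallest bar is the 103 features of FLIP94-508C that were within 2-fold at 3 h and below at 27 h, and in Lasseter the tallest is the 74 features that went from below to within.

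As a description across the 501 features, which are not independent replicates, Pearson correlations between pairs of genotypes were 0.17 to 0.50 at 3 h and 0.62 to 0.65 at 27 h. Those of the change from 3 h to 27 h were 0.27 to 0.48. Within a genotype the 3 h and 27 h ratios correlated at -0.02 for FLIP94-508C, 0.22 for ICC3996 and 0.30 for Lasseter, over all features measured at both times. In all 6 SA samples 270 of the 501 features (53.9%) stayed within 2-fold of control. A change of at least 2-fold in 3 of 3 genotypes was measured for 9 features upwards (1.80%) and 4 downwards (0.798%).

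The time changes under SA were set beside those under the other compounds. The sources used here do not say whether the compounds shared untreated plants. For the 11 features the fitted changes ran from -2.28 to 4.96 under SA, from -1.05 to 1.57 under ACC and from -0.75 to 0.38 under MeJA.

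**Figure D4:**
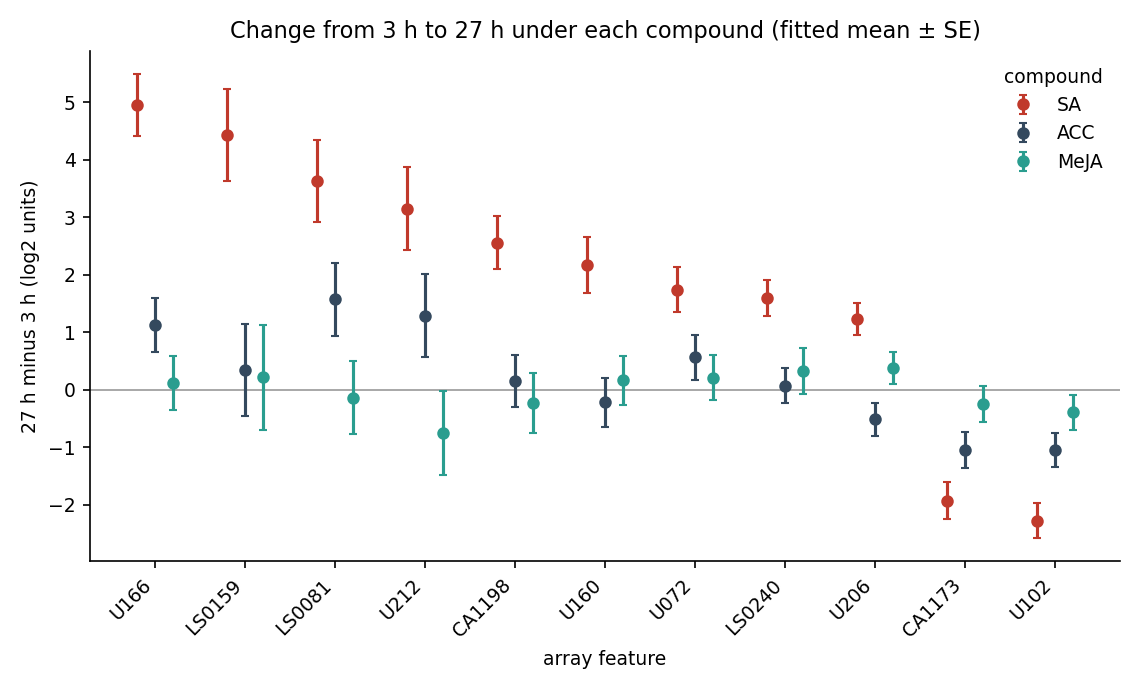
Fitted change from 3 h to 27 h (log2 units, points) with its SE (bars) under SA, ACC and MeJA for the 11 features called under SA. The features were chosen for their SA change. U102 and CA1173 were also lower at 27 h under ACC, at -1.05 each. LS0081, U212 and U166 were also higher there, at 1.57, 1.29 and 1.13. None of these ACC changes passed.

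The SA change differed from the MeJA change for 1 of 523 features, 0.191% of those tested. This was U166, with a difference of 4.84 (SE 0.71, adjusted p = 0.00895 in limma). U166 stayed near control under MeJA, at -0.32 ± 0.09 (SD, n = 3) at 3 h and -0.20 ± 0.19 (SD, n = 3) at 27 h. For the other 10 the difference from MeJA did not pass (adjusted p from 0.153 to 0.587), and 45 features had an unadjusted p under 0.05. The difference of U166 passed in all 5 leave-out fits that tested it (adjusted p from 0.00246 to 0.0380). None of these fits left out either of its SA values at 3 h.

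The SA change differed from the ACC change for 0 of 523 features (0.00%) in limma; the unadjusted p was under 0.05 for 38. The largest differences, which did not pass, were those of LS0159 (4.08, SE 1.13, adjusted p = 0.229) and U166 (3.84, SE 0.71, adjusted p = 0.0794). Under ACC, LS0159 was at -0.045 ± 1.13 (SD, n = 3) at 3 h and 0.30 ± 0.36 (SD, n = 3) at 27 h, and U166 rose in 3 of 3 genotypes, by 0.996 to 1.20. U212 rose by 3.51 in FLIP94-508C and 1.07 in Lasseter under ACC and fell by 0.71 in ICC3996. U102 fell by 2.05 for FLIP94-508C, 0.50 for ICC3996 and 0.59 for Lasseter under ACC, and under MeJA it was below control at both times, at -0.62 ± 0.21 and -1.01 ± 0.40 (SD, n = 3). CA1173 fell under ACC by 2.32, 0.37 and 0.44 in the same order of genotypes. Missing the threshold does not show that the time course was the same under SA and ACC.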

How the data were processed

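The deposited values are log2 ratios. Per the series' design text, the authors quantified the spots with ImaGene (version 5.5 in the deposited readme) and processed them in GeneSight 3: local background was subtracted, flagged spots were dropped, Lowess was applied, and the Cy5/Cy3 ratios were put on a shifted log2 scale with duplicate spots combined. Per the labels, each column is a mean over 3 biological replications with dye swaps, so a sample has no error of its own. The sources used here do not give the size of the shift, which draws dim spots towards 0. The direction is not stated for the columns: treated over control is likely, since the labels list control as channel 1 and treatment as channel 2.

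A feature was tested if each of the 6 compound-by-time groups had a value in 2 or more of its 3 samples (523 of 715). limma 3.58.1 in R 4.3.3 was fitted to all 18 samples with 6 group means and a genotype term, which pairs the times because each genotype was sampled in every group. Tests were moderated, two-sided and Benjamini-Hochberg adjusted over 523 features (threshold 0.05). The genotypes served as replicates, and p-values measure their uneven response under all 3 compounds together with measurement error. Because the spread was pooled over the 18 samples, an SE need not match the spread of the SA values. Where SA values spread more than the pool, the SE is too small for them and the p-value too low. At an unadjusted p under 0.05 (limma) the change from 3 h to 27 h had 1 of 523 features under MeJA. That is fewer than such a threshold gives where nothing changes. The counts were 72 under ACC and 90 under SA. How far the pooling lowered the p-values under SA was not tested. For LS0159 at 3 h the fitted SE was 0.57. Its SD over the genotypes at 3 h was 2.25 under SA, 1.13 under ACC and 0.25 under MeJA. Where a sample was left out, both remaining samples of its group needed a value, so some features were not tested. Arrays have no read depth, and their number and the omitted spots limit the precision.

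For each group of features the 2 largest that passed in a direction were named, as identifiers only, ranked by the change, by the 27 h response for late features, by the smaller of the responses for same signs, or by the difference from ACC or MeJA. A feature missing an SA value was named only where it was the largest. U160, LS0240 and LS0081 were added after their values were seen, because their counts were small. The comparison, the groups of features and the rule were chosen with earlier results of these data known. The fit was run on simulated data in which each feature had the same spread in every sample and the same shift in every genotype. The measured samples differ in spread, so that run cannot show how the fit does on them. The alternatives tried were other filters, scalings, weights, sample sets, a variance trend and the t-test of the design text.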

Additional observations from a re-analysis of the deposited data

Results flagged for a closer look

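The effect of SA differed between the times by the test of the change for the 11 features described above, and these are listed because a treated-against-control effect that differs between time points was searched for. The changes from 3 h to 27 h (log2 units, limma) were 4.96 for U166, 4.43 for LS0159, 3.63 for LS0081, 3.15 for U212, 2.56 for CA1198, 2.18 for U160, 1.74 for U072, 1.59 for LS0240 and 1.23 for U206. They were -2.28 for U102 and -1.93 for CA1173. For U166 the change under SA exceeded that under MeJA by 4.84. Groups of 3 samples are too small for a search for samples far from the others.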

How the results depend on the processing

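The alternatives changed how many features passed, and 297 of 736 recomputed values of the named and persisting features no longer passed. That 0 of the 736 changed sign is no check of direction. Some settings, such as the variance trend, alter the p-value and not the estimate. Leaving out a 3 h sample can also leave a 27 h response unchanged, and the features were chosen for passing in the same data. The genotype term pairs the times, and without a replicate block 18 changes passed, 2 features had opposite signs and 7 were late. With SA samples only, the counts of changes, same signs, opposite signs, late and early features were all 0, and so they were with the methods' t-test after adjustment (lowest adjusted p = 0.297); before it, 40 changes passed and 5 were late. With SA and ACC samples only they were 3, 3, 0, 1 and 0. Over the 444 features with a value in all 18 samples they were 2, 4, 2, 0 and 0, with 0 differing between SA and MeJA, where 6 of the 11 named features were not tested. With sample medians subtracted, 1 early feature remained in the count, and the medians of all features moved from -0.13 and -0.12 to -0.03 and 0.06 at the times. With equal spread, 1 feature had the same sign at both times, 1 was late and 5 differed between SA and MeJA. With sample weights 17 changes passed, 7 features were late, 0 early and 7 differed from MeJA. With a variance trend 1 had opposite signs and 5 were late. When 1 SA sample or 1 genotype was left out (9 fits), changes ranged from 0 to 23, same signs from 0 to 6, opposite signs from 0 to 2, late features from 0 to 9, early ones from 0 to 7, and differences from ACC from 0 to 2 and from MeJA from 0 to 3. In the fit of 523 features all 11 changes passed without a genotype term, with medians subtracted and with sample weights, 7 of 11 with equal spread and 8 of 11 with a variance trend (U072, U160 and U206 did not). Beyond fewer samples or features in some fits, the cause was not tested.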

Other observations

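Late starts could be judged only where 3 h values existed. At 27 h 14 features were at least 2-fold above control in 3 of 3 genotypes, and 6 of these lacked at least 1 of the 3 h values. Of 16 features at least 2-fold below control in 3 of 3 genotypes at 27 h, 5 lacked a 3 h value. In all, 18 features had a value in 3 of 3 genotypes at 27 h and in 0 of 3 at 3 h, and 0 features the reverse. Their mean 27 h ratios ran from -2.31 to 2.57, with 5 at least 2-fold above and 7 at least 2-fold below control. The SA samples lacked values for 138, 173 and 163 features at 3 h and for 107, 118 and 95 at 27 h (FLIP94-508C, ICC3996 and Lasseter), and why spots were omitted at 3 h was not tested.

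The array's 3 features named NORMCON were kept out of the tests. NORMCON2 and NORMCON4 lay between -0.01 and 0.20 in every SA sample. NORMCON3 was at -0.64 in FLIP94-508C and -0.27 in Lasseter at 3 h, with no value in ICC3996, and at -0.89, -2.83 and -1.31 (FLIP94-508C, ICC3996 and Lasseter) at 27 h. The sources used here do not say what NORMCON3 holds.

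Some features carry nearly the same profile: 60 of 523 had a partner with a correlation of at least 0.95 across the samples, as did 2 of the 37 features that passed at 27 h alone and lay within 2-fold of control at 3 h, among themselves.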
